A study of Arabidopsis thaliana with 23 samples.

Results

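The plant hormone auxin, applied here as indole-3-acetic acid (IAA), lowers the RNA of some genes while it raises that of others. Described here are the 69 probe sets of a whole-genome Arabidopsis array whose signal was lower with IAA than without it in each of 4 comparisons. They were chosen from 22746 probe sets other than controls. The scale was L, the group mean of log2(signal + 7.56), and a member needed a mean signal over the 23 arrays of at least 100 and a difference in L of -0.5 or lower in every comparison. Of the 14372 probe sets bright enough, 78 passed, and 9 were left out because the rule names their genes or families, among them the glucosyltransferase genes UGT73D1 and UGT71C1 and the glutathione transferase genes GSTU26 and GSTU28. One of the 9, AT3G44970, was left out as a cytochrome P450 gene from general knowledge of its locus, since it carries no P450 symbol in the gene table. The platform annotation named 1 gene for 29 members, several genes for 5 and no gene for 35. The last 40 are given by probe set ID only, so further genes of the families left out by name could stand among them.

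The series was made to find auxin-responsive genes with the help of auxin inhibitors. Whole Col-0 wild-type seedlings were grown on agar for 6 or 7 days, kept for 1 day in shaken liquid medium and treated for 3 h. The sample labels and the series design text differ on seedling age and on the extraction method. The first set of arrays, replicates 1 to 3 of each group, held mock, IAA at 1 µM, kynurenine at 30 µM, and PEO-IAA at 10 µM alone or together with 1 µM IAA. The second set, replicates 4 and 5, held mock, IAA at 100 nM, and PPBo at 10 µM alone or together with 1 µM IAA, so the IAA dose differs within that set. Kynurenine inhibits TAA1, the aminotransferase that starts auxin synthesis from tryptophan, and PPBo inhibits the YUCCA enzymes that complete it. PEO-IAA binds the TIR1/AFB auxin receptors and blocks them. The origin of the replicates (1 culture or several) is not given, so a p-value here reflects the scatter of these arrays, which may be technical only. In RNA from whole seedlings, fewer cells of a type and less RNA per cell cannot be told apart.

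Auxin acts in the nucleus through the TIR1/AFB receptors, which mark Aux/IAA repressor proteins for degradation and so free the ARF transcription factors. Genes with raised RNA within hours, such as the GH3, LBD and Aux/IAA genes, are the well-known readout of this pathway. Genes with lowered RNA are less well understood as a class. Those named here include genes for secreted and cell wall proteins, lipid-transfer proteins and lipases, and proteins linked to stress and defence.

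Induced genes served as a check that the treatments acted. GH3.3, which encodes an enzyme that conjugates IAA to amino acids, had a signal of 317 ± 124 (SD, n = 3) in the first mock set and 13945 ± 1272 (n = 3) with 1 µM IAA. The difference was 5.50 ± 0.42 (SE) on the log2(signal + 7.56) scale, with an adjusted p of 1.94e-07 in the limma fit. GH3.5, of the same family, rose by 2.56 ± 0.27 (adjusted p = 1.91e-05 by limma). Of the 9 listed early auxin-induced genes, 7 could be tested. Raised calls numbered 7 with 1 µM IAA, 7 for IAA added to PEO-IAA, 3 with 100 nM IAA and 6 for IAA added to PPBo, and lowered calls 0 in each. Of all tested probe sets 0.967%, 0.678%, 0.201% and 0.452% were called higher in these comparisons, and 1.27%, 0.672%, 0.157% and 0.201% lower.

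A pair of arrays stood apart in ways that touch the results. The third 1 µM IAA array had a median correlation of 0.879 with the other arrays, where the other 22 had 0.949 to 0.969. Its ratio of 3′ to 5′ GAPDH probe signal, which goes up where RNA is degraded or copied short, was 24.4, and on the other arrays it ran from 1.19 to 2.05. Without this array the rule would take 76 probe sets, 68 of them among the 69 and with all 29 named members kept. In the first set, the third mock array was the lowest of its 3 for 50 of the 69 members, against 31.1% of the bright probe sets.

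The values that chose the members are a description, and no test was applied to them. The median member difference was -1.004 for 1 µM IAA against mock and -0.91 for IAA added to PEO-IAA. It was -1.01 for 100 nM IAA against the second mock set and -1.01 for IAA added to PPBo. The medians of all 14372 bright probe sets lay between -0.01 and 0.02. A single threshold of -0.5 was passed by 6.87%, 2.36%, 2.62% and 2.63% of the bright probe sets in these comparisons, and the 69 members were 0.480% of them. The members spanned a wide range, from -3.31 to -0.52 with 1 µM IAA and from -4.06 to -0.54 with 100 nM. In 13 members all 4 differences were -1 or lower, and in 5 they were -2 or lower. No comparison held the lowest difference for most members, with 16, 18, 20 and 15 members in the order given above.

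**Figure D1:**
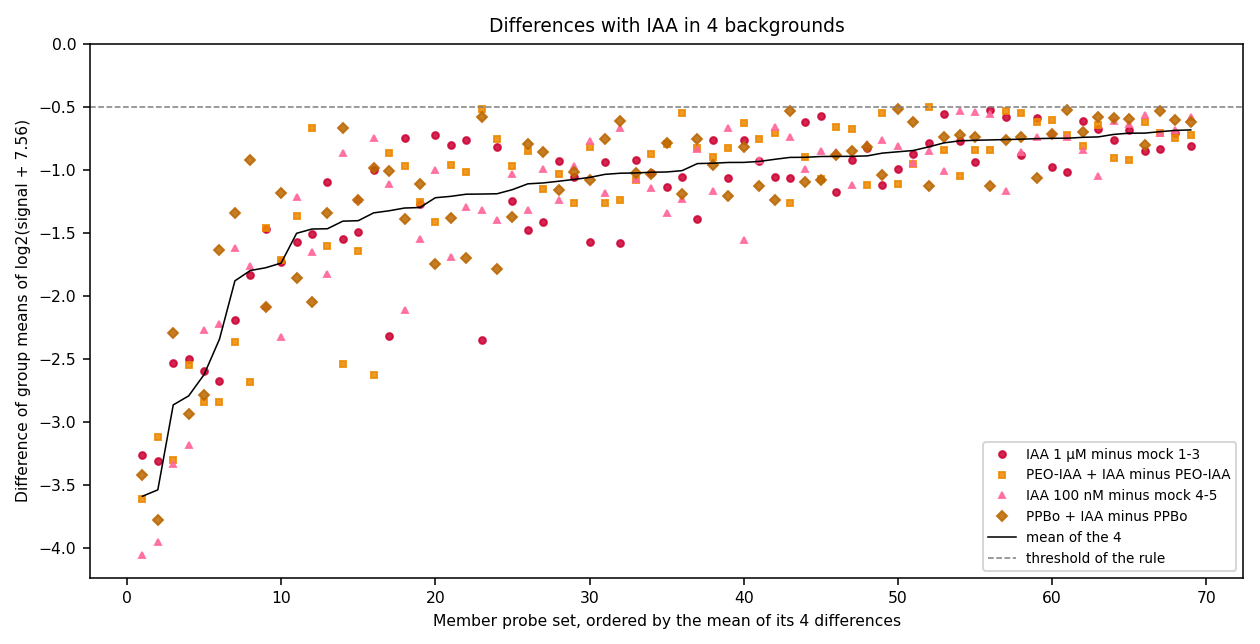
Differences in L (log2 units) (vertical) of the 69 members, ordered along the horizontal axis by their mean difference, in the 4 comparisons that chose them, 1 µM IAA against mock, IAA added to PEO-IAA, 100 nM IAA against mock and IAA added to PPBo; each point is a probe set. All lie at or below -0.5 by construction, with medians of -1.004, -0.91, -1.01 and -1.01.

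Single arrays overlapped for some members. Every array with IAA lay below every array without it for 57 members with 1 µM IAA, where 7.93% of the bright probe sets did so. For IAA added to PEO-IAA there were 53 such members (background 5.68%), and for 100 nM IAA and for IAA added to PPBo there were 69 and 69 (background 20.2% and 18.5%), in groups of only 2 arrays. In 47 members the arrays were separate in all 4 comparisons, as in 1.01% of the bright probe sets. The rule used these contrasts, so nothing is read from the counts.

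Of the 29 named members, 7 encode proteins of the cell wall or linked to its making, in roles assigned here by hand from general knowledge. Their mean signals over all arrays ran from 104.3 for EXPB1 to 785 for AT5G17820. AT4G25250, a member of the pectin methylesterase inhibitor family, had the lowest mean of the 4 differences of any named gene, at -2.86, or 7.27-fold lower. Its signal was 104, 199 and 86.5 in the first mock set and 12.3, 7.48 and 29.8 with 1 µM IAA. It was 345, 375 and 150.2 with PEO-IAA and 29.5, 28.4 and 9.12 once IAA was added. In the second set the mock arrays gave 151 and 213, 100 nM IAA 3.91 and 22.6, PPBo 164 and 144, and PPBo with IAA 25.6 and 25.2. No array with IAA reached an array without it, and the lowest of these signals are below the added constant of 7.56, so the size of the difference depends on that constant.

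AT1G57590, a pectin acetylesterase family gene, was also lower on every IAA array, though less so. Its signal was 315, 386 and 402 in the first mock set against 168, 213 and 267 with 1 µM IAA. With PEO-IAA it was 318, 385 and 378, and with PEO-IAA and IAA 141, 134 and 276. In the second mock set it gave 348 and 396, 100 nM IAA 135 and 159.9, PPBo 373 and 298, and PPBo with IAA 77.5 and 122. The groups did not overlap in any of the 4 comparisons.

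AT4G11210 belongs to the dirigent-like family, whose members guide the coupling of phenolic radicals. In the first mock set its signal was 206, 170.0 and 98.0, and with 1 µM IAA it was 66.8, 62.1 and 158, the last on the array with the high GAPDH ratio, so these groups overlapped. With PEO-IAA it was 225, 155 and 84.4, and with IAA added 62.8, 83.0 and 65.2. The second mock set gave 245 and 262 and 100 nM IAA 55.7 and 49.995, the gene's largest difference at -2.11. PPBo gave 184 and 179, and PPBo with IAA 78.3 and 53.7.

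The gene sks15, one of the SKU5-similar group of multicopper-oxidase-like wall proteins, had 145, 132 and 143 in the first mock set and 105, 63.9 and 48.9 with 1 µM IAA. PEO-IAA arrays gave 121, 109 and 70.3 and those with IAA added 53.9, 74.6 and 9.2, where 1 array of each group crossed. In the second set it was brighter in mock, at 271 and 293, and it was 136 and 105 with 100 nM IAA. PPBo gave 196 and 206, and PPBo with IAA 123 and 110.2.

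The brightest cell wall member was AT5G17820, a class III peroxidase, an enzyme type that oxidises phenolics in the wall. Its signal was 1281, 961 and 529 in the first mock set and 428, 512 and 344 with 1 µM IAA. PEO-IAA gave 1204, 975 and 664 and PEO-IAA with IAA 660.0, 575 and 326. Mock arrays of the second set gave 1197 and 1341, 100 nM IAA 571 and 569, PPBo 965 and 938, and PPBo with IAA 426 and 501. The groups were separate in each comparison, by the least margin with PEO-IAA. EXPB1, a beta-expansin, of a protein family that loosens cell walls, and AT4G20460, related to the MUR4 epimerase that makes UDP-arabinose, completed this group with mean differences of -0.93 and -0.75.

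**Figure D2:**
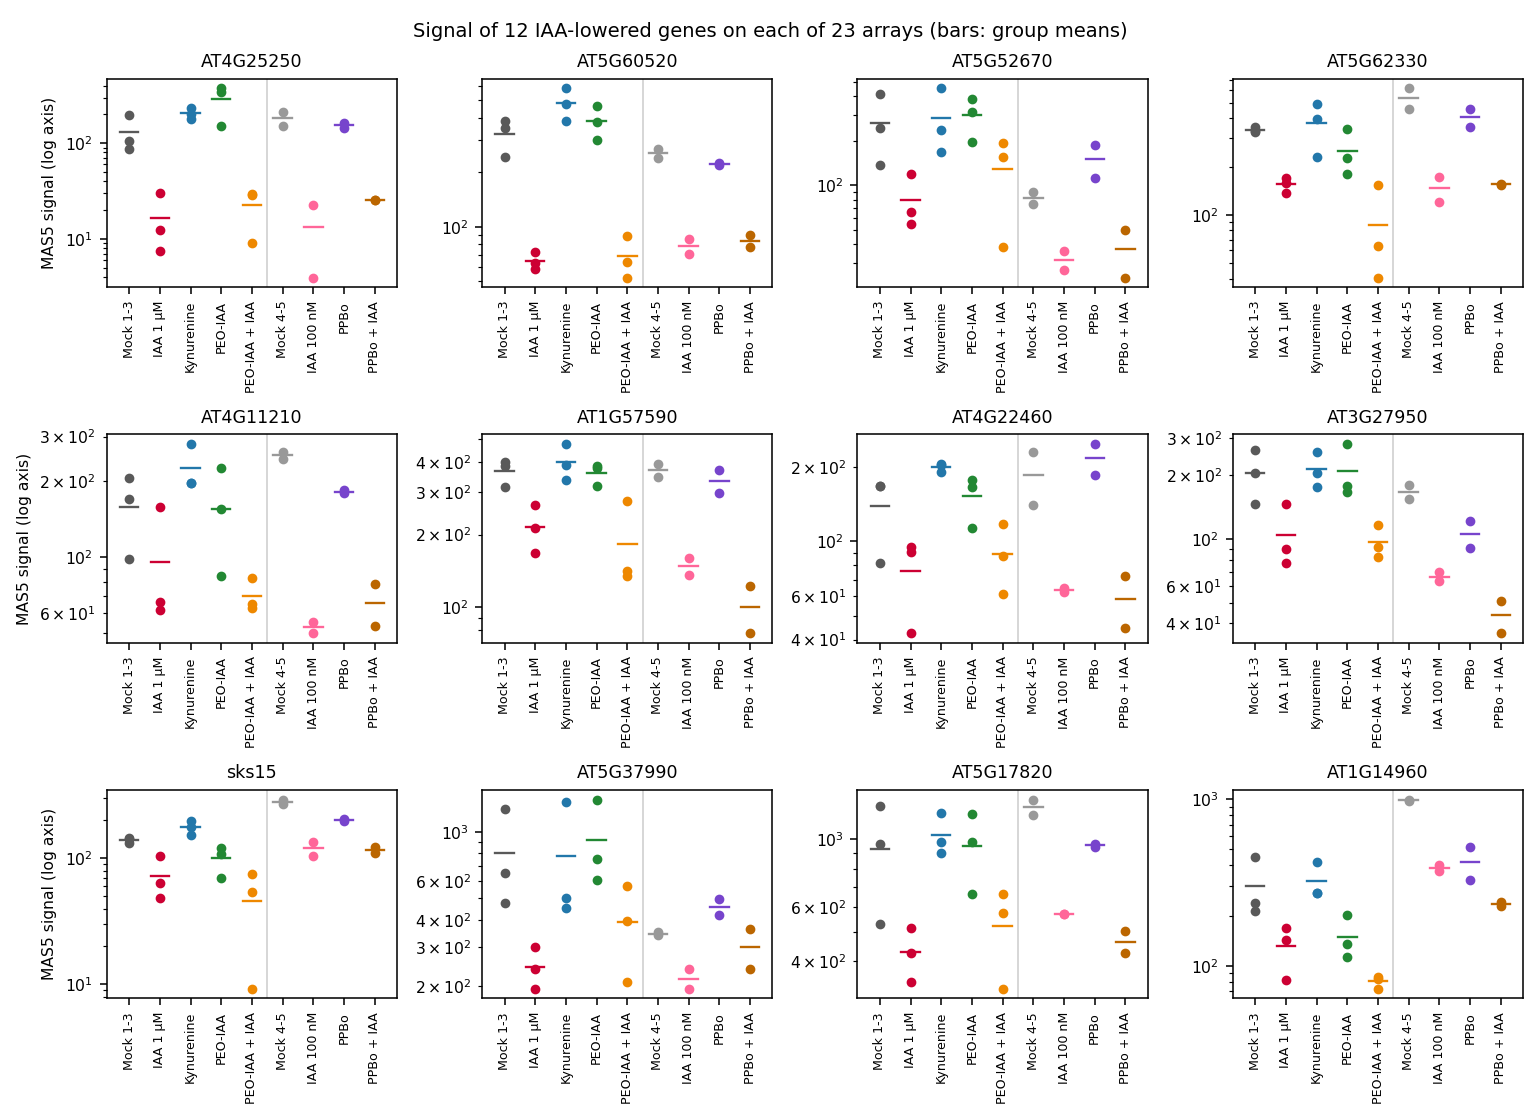
Signal on every array (log axis, arbitrary units) of the 12 members naming 1 gene with the lowest mean of the 4 differences, by group; points are arrays. AT4G25250 drops from between 86.5 and 375 on arrays without IAA to between 3.91 and 29.8 on arrays with it.

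AT5G60520 and AT5G60530, both annotated as late embryogenesis abundant (LEA) related, lie next to each other in the genome. AT5G60520 had 383, 352 and 243 in the first mock set and 72.4, 58.1 and 63.0 with 1 µM IAA. PEO-IAA gave 379, 465 and 301, and with IAA added 52.2, 89.3 and 64.1. The second mock set gave 241 and 269, 100 nM IAA 70.4 and 85.4, PPBo 226 and 220.2, and PPBo with IAA 77.2 and 90.1. All IAA arrays lay close together, between 52.2 and 90.1, whatever the inhibitor. Its neighbour was lower by less, with a mean difference of -0.89 against -1.88, and its arrays gave 342, 309.5 and 253 in mock and 179, 178 and 65.1 with 1 µM IAA.

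Lipid families held 4 named members: AT4G22460 and AT3G22570 of the lipid-transfer protein superfamily, and AT3G27950 and AT3G62280 of the GDSL lipases, which act on lipid esters and are often secreted. AT4G22460 gave 167, 167 and 82.0 in the first mock set and 90.3, 42.4 and 94.7 with 1 µM IAA. With PEO-IAA it gave 114, 178 and 166, and with IAA added 61.0, 118 and 87.7, so both comparisons of the first set overlapped. In the second set it was apart, at 141 and 229.6 in mock against 64.9 and 62.2 with 100 nM IAA, and at 249 and 186 with PPBo against 72.6 and 44.4 with IAA added.

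AT3G27950 had a signal of 205, 263 and 147 in the first mock set and 90.02, 77.5 and 147 with 1 µM IAA. PEO-IAA gave 168, 282 and 178 and PEO-IAA with IAA 82.5, 116 and 91.4. In the second set, mock arrays gave 181 and 154, 100 nM IAA 63.2 and 69.7, PPBo 121 and 90.8, and PPBo with IAA 51.3 and 35.9. On the third 1 µM IAA array it stood level with the third mock array. AT3G22570 varied more among untreated arrays, from 217 to 835 in the first mock set, and AT3G62280 less, from 272 to 314, with mean differences of -0.95 and -0.89.

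Among 6 members linked to defence or the secretory pathway, AT1G14960, a major latex protein family gene related to the Bet v 1 allergen, had the lowest mean difference, at -1.02. Its arrays gave 449.8, 239.5 and 214 in the first mock set and 81.6, 143 and 168 with 1 µM IAA. PEO-IAA alone gave 201, 113 and 134, and with IAA added 83.6, 72.5 and 85.4. The second mock set was brighter, at 979 and 996, with 369 and 403 for 100 nM IAA, 326 and 519 for PPBo, and 229 and 241 for PPBo with IAA. PEO-IAA and PPBo without IAA thus lay below their mock arrays, a contrast the rule did not use. The other 5 were AT1G02360 (a chitinase, -0.76), AT5G41280 (a cysteine-rich repeat secretory protein, -0.94), AT5G45650 (a subtilisin-like protease, -0.72), AT1G05700 (a leucine-rich repeat receptor kinase, -0.76) and AT3G23190 (a lesion-inducing protein relative, -0.75).

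AT5G37990 and AT5G38020, with 2 protein-coding genes between them, encode SABATH-family methyltransferases, enzymes that methylate small acids such as hormones. AT5G37990 gave 1273, 654 and 477 in the first mock set and 239, 194 and 300.1 with 1 µM IAA. PEO-IAA gave 1407, 605 and 753, and PEO-IAA with IAA 567, 396 and 209. The second mock set gave 341 and 350.0, 100 nM IAA 238 and 194, PPBo 495 and 418, and PPBo with IAA 238 and 364. Replicate 1 was the brightest of the 3 in mock, PEO-IAA and PEO-IAA with IAA, but not with 1 µM IAA. AT5G38020 had a mean difference of -0.89 against -1.03 for its relative.

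Of the remaining 8 named members, AT5G52670, of the heavy-metal-associated domain family, had a mean difference of -1.50. Its arrays scattered widely, with 244, 412 and 137 in the first mock set and 66.2, 54.9 and 119 with 1 µM IAA. PEO-IAA gave 197, 385 and 312 and PEO-IAA with IAA 38.0, 156 and 193. The second mock set was dimmer, at 90.6 and 74.5, with 26.9 and 35.7 for 100 nM IAA, 188 and 113 for PPBo, and 50.1 and 23.7 for PPBo with IAA. The groups did not overlap in the 4 comparisons that chose the gene, though with PEO-IAA only narrowly, at 193 against 197.

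AT5G62330, which has no role given here, had a mean difference of -1.47. The first mock set gave 354, 333 and 328, and 1 µM IAA 171, 158 and 137. PEO-IAA gave 180.1, 344 and 228, and PEO-IAA with IAA 40.5, 154 and 63.5. The second mock arrays gave 459.7 and 617, 100 nM IAA 173 and 121, PPBo 458 and 356, and PPBo with IAA 154 and 156. The arrays with IAA were below those without it in every comparison. The other 6 were AT2G44380 and AT2G42060 of the C1-domain family, AT1G29020 (calcium-binding EF-hand), AT1G72200 (RING-type ubiquitin ligase family), AT1G06830 (glutaredoxin) and AT5G59490 (HAD-like hydrolase), with mean differences from -0.95 for AT1G72200 to -0.71 for AT1G06830.

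The 2 largest mean differences of all members belonged to probe sets that name several genes. The probe set 248844_s_at gave 1883, 1984 and 969.7 in the first mock set and 169, 77.0 and 272 with 1 µM IAA. PEO-IAA gave 3011, 2009 and 1432 and PEO-IAA with IAA 127, 205 and 161. The second mock set gave 2931 and 3199, 100 nM IAA 190.5 and 164, PPBo 1878 and 1750.0, and PPBo with IAA 162 and 163. Every IAA array was at 272 or lower and every other array at 969.7 or higher, a mean difference of -3.59, or 12.02-fold.

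The other of these, 254820_s_at, had a mean difference of -3.54, and the lowest among the probe sets with no gene were 253957_at and 248252_at, at -2.79 and -2.62. In the first mock set 254820_s_at gave 3548, 2823 and 1579 and with 1 µM IAA 239, 159 and 394. Probe set 253957_at gave 863, 858 and 452 in mock and 88.3, 86.9 and 205 with IAA, and 248252_at 1141, 1546 and 672 in mock and 148, 118 and 276 with IAA. In all 3 the third IAA array was the highest IAA array and the third mock array the lowest mock array, and the groups did not meet. Next among the probe sets with no gene came 254606_at and 248790_at, with mean differences of -1.80 and -1.78. In the first mock set 254606_at gave 310.4, 383 and 254 and with 1 µM IAA 72.8, 121 and 61.9, and 248790_at gave 229.8, 311 and 277 and then 72.4, 111 and 99.3. Neither showed overlap between these groups.

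Near the threshold, membership rests on small amounts. The 3 members nearest inside it by their highest difference were AT2G42060 at -0.5007, 264470_at at -0.517 and 264415_at at -0.520. The nearest outside were 251254_at, 247655_at and AT4G22110, at -0.4999, -0.498 and -0.496. On mean signal, AT1G72200 (101.6), EXPB1 (104.3) and 267418_at (109) lay nearest inside, and AT1G49030 (99.0), AT1G61840 (95.6) and 246844_at (93.0) nearest outside. A further 55 probe sets passed all 4 thresholds but were too dim. Each of the 20 arrays in the rule's differences was left out in turn, and the rule then took 60 to 82 probe sets. Of the 69 members 31, with 12 of the 29 named among them, were taken every time. Of the 7 named cell wall members, 6 were taken every time. So were 1 of 2 LEA-related, 1 of 4 lipid, 1 of 6 linked to defence or secretion, 1 of 2 methyltransferases and 2 of the remaining 8. These counts use the values that chose the members, in roles assigned by hand, so nothing is read from them.

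Against the mean of the mock arrays of their set, member medians were -1.08, -1.05 and -1.02 on the 1 µM IAA arrays and -0.99 and -1.05 on the 100 nM arrays. They were -0.87, -0.94 and -1.13 for PEO-IAA with IAA and -1.30 and -1.26 for PPBo with IAA. The 3 mock arrays of the first set were themselves at 0.25, 0.07 and -0.32. The medians of all bright probe sets lay within 0.03 of 0 on every array. Kynurenine arrays gave 0.47, 0.11 and 0.16, PEO-IAA arrays 0.47, 0.17 and -0.15, and PPBo arrays -0.16 and -0.29. Between the mock sets, 43 of 69 members were higher in the second, with a median of 0.21 against -0.03 for the bright probe sets.

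**Figure D3:**
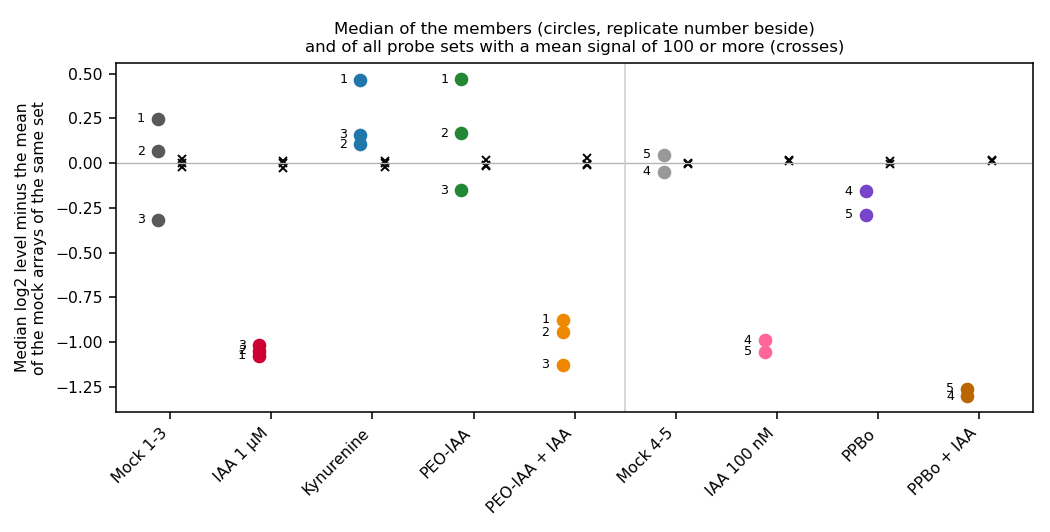
Median over the 69 members on each array, in log2 units relative to the mean of the mock arrays of the same set; points are arrays, by group. Arrays with IAA lie between -1.30 and -0.87, and arrays without it between -0.32 and 0.47.

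The comparisons of an inhibitor with mock were tested, since none of them is a difference of the rule. They share arrays with the rule, so the choice of members can shift their medians and counts. With kynurenine only the mock side was chosen as high, which favours differences below 0. The size of such shifts was not tested. Kynurenine arrays did not enter the rule. The mock, PEO-IAA and PPBo arrays entered it as the higher side of a difference, and the IAA arrays as the lower side. Kynurenine and PEO-IAA were compared with the same 3 mock arrays, so their results are not independent. The limma fit covered 15922 probe sets, all 69 members among them, and a call needed a Benjamini-Hochberg adjusted p below 0.05 over all of these.

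With kynurenine, no member was called in either direction by limma, where 0% of the tested probe sets were called higher and 0.0126% lower. At an unadjusted p below 0.05, 6 members were higher and 0 lower, against 0.678% and 1.22% of all tested. The member median was 0.20, beside -0.01 for all tested, and 60 of 69 members lay above 0, as did 48.4% of all tested. For the 29 named members the median was 0.12, with 25 above 0. All 7 cell wall members and all 4 lipid members had positive differences, from 0.05 to 0.71 and from 0.003 to 0.57. EXPB1, a cell wall member with a mean signal of 104.3, reached the required 100 only with its kynurenine arrays counted. Differences were also positive in 2 of 2 LEA-related members, 5 of 6 linked to defence or secretion, 1 of 2 methyltransferases and 6 of the remaining 8. In 15 members every kynurenine array was above every mock array (background 3.37%), and in 0 every one was below (background 3.87%).

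The named member with an unadjusted p below 0.05 was AT5G60520, at 478, 582 and 386 with kynurenine against 383, 352 and 243 in mock, a difference of 0.56 ± 0.21 (SE) with an adjusted p of 1.00 by limma. AT4G25250 gave 235, 180.0 and 202 against 104, 199 and 86.5, a difference of 0.71 whose groups overlapped. The member median turned on single arrays. It was 0.08 without the third mock array, with 41 members above 0, and 0.41 without the first, with 63. It was 0.11 without the first kynurenine array and 0.32 without the second. With the replicate number as a block, 0 members were called as well.

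With PEO-IAA, 1 member was called higher and 0 lower by limma, beside 0.358% and 0.301% of the tested probe sets. At an unadjusted p below 0.05 there were 10 higher and 4 lower (background 2.72% and 2.37%). The median was 0.16 (all tested -0.00), and 44 of 69 members were above 0 (background 49.4%). Among the 29 named members the median was -0.03, with 13 above 0. In 10 members all PEO-IAA arrays were above all mock arrays and in 6 all were below, where 6.12% and 6.04% of tested probe sets did so. The direction differed among members, from -0.94 for AT1G14960 to 1.60.

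The called probe set was 252222_at, one of the unnamed, singled out here after its values were seen. Its mean signal over the 23 arrays, 115.4, reached the required 100 only with its PEO-IAA arrays counted. Its membership therefore depends on the group in which it was called higher, and the call is not independent of the choice. Its signal was 208, 246 and 205 with PEO-IAA and 117, 115 and 75.7 in mock, with no overlap, and the difference was 1.07 ± 0.20 (SE, adjusted p = 0.0111 by limma). The call was lost without the third mock array (adjusted p = 0.0943) and without the second PEO-IAA array (0.0769). With the replicate number as a block, 2 members were called higher, 252222_at and 263229_s_at. The second is a probe set naming several genes, which gave 498, 338 and 235 against 172, 143 and 77.6 in mock (difference 1.401, adjusted p = 0.0254 in the blocked limma fit). Its mean signal of 118.4 likewise reached the required 100 only with its PEO-IAA arrays counted, so the same limit holds for its call. Leaving the third 1 µM IAA array out of the shared fit gave 3 calls.

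No named member was called with PEO-IAA in the fit as reported or with the block alone. AT1G14960 gave 201, 113 and 134 against 449.8, 239.5 and 214 in mock, -0.94 ± 0.28 (adjusted p = 0.246 by limma), and its groups did not overlap. The chitinase gene AT1G02360 gave 891, 755 and 572 against 606, 489 and 334, a difference of 0.64 ± 0.21 (adjusted p = 0.395), and those groups overlapped. AT3G62280, a GDSL lipase gene, gave 192, 267 and 207 against 314, 308 and 272, or -0.42 ± 0.15 (adjusted p = 0.515). With the block and without the third 1 µM IAA array, AT1G02360 was called higher (adjusted p = 0.00115 by limma) and AT1G14960 lower (0.0469), their differences being the same. The member median was 0.02 without the third mock array and 0.31 without the first. It was 0.06, 0.09 and 0.32 without the first, the second and the third PEO-IAA array. Both tested genes of the root hair list, the expansins EXPA7 and EXPA18, fell with PEO-IAA by 2.11 and 1.71 (adjusted p = 0.0088 and 0.000283 by limma), and the part of root hair RNA in the members' values was not tested.

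With PPBo, 0 members were called higher and 1 lower by limma, beside 0.107% and 0.258% of the tested probe sets. At an unadjusted p below 0.05, 0 were higher and 8 lower (background 2.34% and 2.83%). The median was -0.21 (all tested 0.01), and 18 of 69 members were above 0 (background 51.3%). The 29 named members had a median of -0.35, with 8 above 0. None of the 7 cell wall members was above 0, with values from -0.47 to -0.15. Above 0 were 1 of 4 lipid members, 1 of 2 LEA-related, 2 of 6 linked to defence or secretion, 1 of 2 methyltransferases and 3 of the remaining 8. In 34 members both PPBo arrays were below both mock arrays and in 9 both were above, where 20.9% and 22% of the tested probe sets did so. The median moved to -0.10 when all 5 mock arrays served as control.

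The member called lower was 254975_at, also unnamed and singled out after its values were seen. PPBo gave 73.95 and 126 against 737 and 711 in mock, and its signal fell by 2.81 ± 0.26 (SE) on the log2 scale. A limma adjusted p of 1.67e-05 went with it, and the call was kept in all 15 alternatives. With IAA added to PPBo the signal was 65.9 and 48.7, and with 100 nM IAA 404 and 398. In the first set it gave 554, 547 and 557 with PEO-IAA against 769, 1084 and 1046 in mock, and 556, 956 and 1001 with kynurenine.

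Named members with PPBo came closest to a call at AT1G29020, the EF-hand gene. It gave 626 and 623 with PPBo and 1181 and 1176 in mock, -0.91 ± 0.21 (adjusted p = 0.0705 by limma), and it passed at 0.0199 with the third 1 µM IAA array left out of the shared fit. AT1G14960 was at 326 and 519 against 979 and 996, -1.25 ± 0.34 (adjusted p = 0.205). AT3G23190 gave 660.3 and 663 against 1262 and 1025, and AT5G41280 395 and 304 against 718 and 574, with differences of -0.77 and -0.87 that were not called in the fit as reported. In the other direction AT5G52670 lay at 0.78 and AT1G02360 at 0.54, neither of them called. A fit of only the second mock and PPBo arrays called 9 members lower, among them AT1G29020, AT1G14960, AT3G23190 and AT5G41280. With all 5 mock arrays as control, AT1G29020, AT3G23190 and AT5G41280 were called lower.

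**Figure D4:**
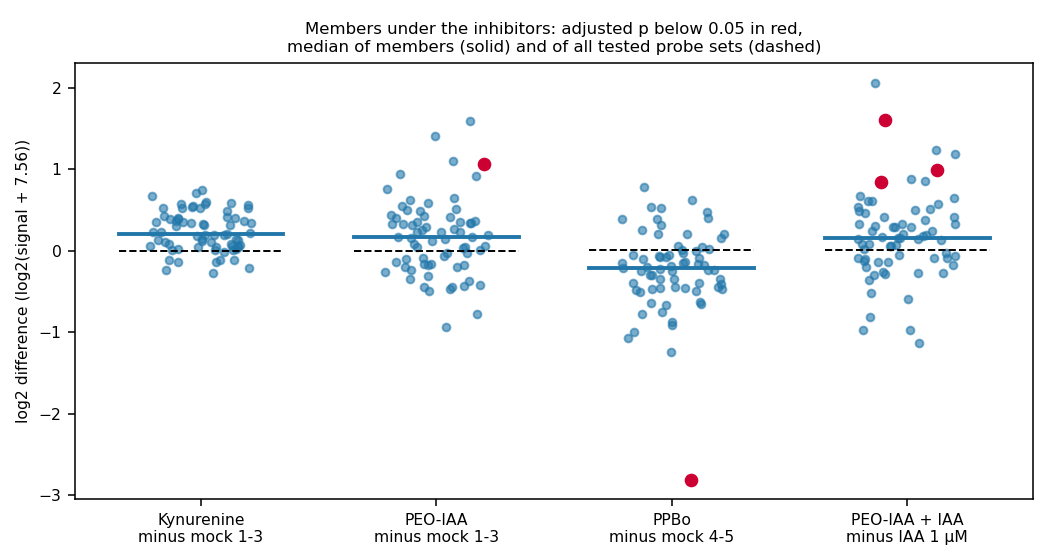
Differences in L (log2 units) of the 69 members in the 4 tested comparisons, kynurenine, PEO-IAA and PPBo each against its mock set, and PEO-IAA with IAA against IAA alone; each point is a probe set. Medians are 0.20, 0.16, -0.21 and 0.16, and the lowest point is 254975_at with PPBo at -2.81.

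PEO-IAA with 1 µM IAA was compared with 1 µM IAA alone to see how far the antagonist shifted the members once IAA was present. By limma 3 members were called higher and 0 lower, beside 0.251% and 0.119% of the tested probe sets. At an unadjusted p below 0.05 there were 12 higher and 5 lower (background 6.34% and 5.93%). The median was 0.16 (all tested 0.00), and 45 of 69 members were above 0 (background 50.2%). Over the 29 named members the median was 0.14, with 17 above 0. All arrays were above in 11 members and below in 1, where 4.99% and 4.98% of the tested probe sets were so.

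The 3 called were unnamed probe sets, singled out after their values were seen. Probe set 251857_at gave 129.7, 77.1 and 75.8 with PEO-IAA and IAA against 33.8, 13.7 and 32.0 with IAA alone, a difference of 1.60 ± 0.26 (adjusted p = 0.00503 by limma) kept in each of the 14 alternatives that tested it. In the other 2, a filter at the median signal and a fit of only these groups, the filter removed it. Its first-set mock arrays gave 154, 187 and 130.2, above both groups. Probe set 252222_at gave 93.6, 149 and 94.5 against 47.7, 47.4 and 60.9, a difference of 0.99 ± 0.20 (adjusted p = 0.0341 by limma). Probe set 248978_at gave 1036, 1005 and 744 against 435, 663 and 455, or 0.84 ± 0.18 (adjusted p = 0.0463 by limma).

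These last 2 calls rested on single arrays. For 252222_at the call was lost without IAA array 1 (adjusted p = 0.0649) or 2 (0.095) and without PEO-IAA and IAA array 2 (0.179) or 3 (0.0677). For 248978_at it was lost without IAA array 1 (0.0847) or 3 (0.146), and without PEO-IAA and IAA array 1 (0.184) or 2 (0.179). The number of members called higher was 1 without the second PEO-IAA and IAA array.

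No named member was called here in the fit as reported. AT5G62330 gave 40.5, 154 and 63.5 against 171, 158 and 137, -0.98 ± 0.34 (adjusted p = 0.332 by limma). Without the second PEO-IAA and IAA array its difference was -1.47 and it was called lower (adjusted p = 0.0314 by limma). EXPB1 gave 103, 62.2 and 89.9 against 59.2, 57.2 and 54.6, with no overlap and a difference of 0.50 ± 0.20 (adjusted p = 0.385 by limma). AT4G25250, which had the largest IAA difference of the named genes, gave 29.5, 28.4 and 9.12 against 12.3, 7.48 and 29.8. Its difference of 0.33 came with groups that overlapped. Early auxin-induced genes, 7 tested, gave 0 calls higher and 1 lower in this comparison, with a median of -1.08.

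In the other inhibitor comparisons the early auxin-induced genes had medians opposite in sign to those with IAA: -0.94 with kynurenine, -1.09 with PEO-IAA and -1.20 with PPBo, with 1, 2 and 3 called lower and 0 higher by limma. GH3.3 was called in each, at 40.2 ± 28.6 (SD, n = 3) with kynurenine and 64.8 ± 33.2 (n = 3) with PEO-IAA against 317 ± 124 (n = 3) in mock, and at 10.9 ± 0.04 (n = 2) with PPBo against 429 ± 62.9 (n = 2). The difference between these inhibitors was not tested.

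Of the other gene lists, few genes had a probe set naming them alone. Of 138 listed loci 19 had one and 17 were tested, 6 of the 15 lists had no tested gene, and 0 listed genes were members. Root tissue markers were represented by 2 of 14 genes, PYK10 and EXPA7, and shoot markers by RCA, the Rubisco activase gene, 1 of 14. PYK10 made up nearly all of the root marker sum, with a first-set mock mean of 15972 against 126 for EXPA7. The sum therefore does not show the fall of EXPA7 with PEO-IAA, to a mean of 27.9. Summed root marker signal ran from 15107 to 17133 in the first mock set, 14470 to 22192 with 1 µM IAA, 14279 to 17454 with PEO-IAA and 12878 to 14545 with PEO-IAA and IAA. In the second set it ran from 15052 to 15067 in mock, 14943 to 15725 with 100 nM IAA, 14295 to 16428 with PPBo and 13718 to 14877 with PPBo and IAA. RCA ran from 14115 to 15376 in the first mock set and 13062 to 17774 with 1 µM IAA. With PPBo RCA ran from 19329 to 19396 against 16545 to 17450 in its mock set. The part of organ composition in the members' differences was not tested.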

How the data were processed

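Seedling RNA was hybridised to 23 one-colour Affymetrix ATH1 arrays in 9 groups. The deposited values are MAS5 signal intensities on a linear scale, per the submitters' processing notes, with no version given; array trimmed means were 500.04 to 500.05. Detection calls were not used here. No count depth exists for arrays, and the small number of arrays limits precision.

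From these, L = log2(intensity + 7.56) was computed, the constant being the 10th percentile of all values. Tests were made with limma 3.58.1 in R 4.3.3 (lmFit, eBayes with trend) on all 23 arrays as 9 group means, 14 residual degrees of freedom, over 15922 probe sets with a mean signal above the 30th percentile (61.8), adjusted by Benjamini-Hochberg within each comparison. The code was tested on simulated data.

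Members and gene lists were chosen with earlier results of these data known. Named members are any with 1 gene. Array values are given for the 12 with the lowest mean of the 4 differences and for calls. They are also given for some other named members, such as AT1G29020 and EXPB1, picked after their values were seen. The 4 lowest by that mean among probe sets naming no gene are given by ID, with the 2 lowest of those naming several genes. Genes were named from the platform annotation (13513 probe sets with 1 gene, 503 with several, 8794 with none), of which 13436 matched a TAIR10.1 gene table, used for names and neighbours only. Promoter sequences were not used here, so the planned motif count was not made, and no coordinates are given.

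Replicate numbers come from the sample titles. Same-numbered arrays deviated together for kynurenine and mock (r = 0.63, 0.49 and 0.43) and for PEO-IAA and mock (0.55, 0.41 and 0.42). The fit as reported ignores this pairing, so its SE and p-values for these comparisons do not take it into account. Fits with the replicate number as a block are given as alternatives. Alternatives were the constant, filter, quantile normalization, array weights, control set, arrays fitted, each array left out and a replicate block.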

Additional observations from a re-analysis of the deposited data

How the results depend on the processing

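The rule took 79 probe sets with the smaller constant (1.89), 59 with 4 times the constant (30.24) and 69 after quantile normalization, 65 of them shared. Member medians kept their sign in every alternative. Kynurenine gave 0 calls throughout. With PEO-IAA the members called higher, 1 as reported, were 3 with 4 times the constant, 4 with array weights, 0 above the median signal, 3 with all 5 mock arrays, 0 with only the groups compared, 2 with the replicate block, 3 without the third 1 µM IAA array and 5 with both last changes, and 0 to 1 leaving out 1 array. Called lower were 1 with array weights and 2 with the block and that array left out. For PEO-IAA with IAA against IAA, called higher (3 as reported) were 1 above the median signal, 1 with no filter, 0 with only the groups compared, 7 with the replicate block and 16 with the block and that array left out, and 1 to 3 leaving out 1 array. Called lower were 1 with 4 times the constant, 1 after quantile normalization, 1 with the block and 1 with the block and that array left out, and 0 to 2 leaving out 1 array. In this comparison same-numbered arrays did not deviate together (r = 0.01, -0.14 and -0.06). The third 1 µM IAA array was part of these values, and pairing without it was not tested. For PPBo, called lower (1 as reported) were 6 with array weights, 4 with all 5 mock arrays, 9 with only the groups compared, 2 with the block, 2 without the third 1 µM IAA array and 6 with both, and 1 was called higher with both. Same-numbered PPBo and mock arrays did not deviate together either (r = 0.03). For PEO-IAA with IAA against IAA, the block made AT4G20460 a call (adjusted p = 0.0333 by limma), and with that array left out AT1G02360, AT4G20460 and AT5G37990 were called (0.00728, 0.0337 and 0.034). The cause of these changes was not tested. Blocks changed no other count of members called. Dim signals near the constant limit the size of a difference.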
